A study of Mus musculus with 18 samples.

Results

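The 10 genes Atf4, Atf5, Ddit3, Trib3, Chac1, Asns, Psat1, Phgdh, Slc7a11 and Ddit4 were followed in mouse gastruloids as a set of amino acid stress genes linked to the transcription factor Atf4. They were named as a list of known genes, and no value of these data enters the rule, although earlier results of the same data were known when the list was written. The count table holds 55385 genes, of which 16041 were expressed enough to be tested, and all 10 members were among those tested. Gastruloids are aggregates of mouse embryonic stem cells that, after a pulse of CHIR, which blocks GSK3 and so turns on Wnt signalling, form embryo-like germ layers in culture. PolyA RNA was sequenced from wild-type (WT) gastruloids of strain 129/SVEV in 6 groups of 3 libraries each. The control arm (CTL) was untreated at 48 h after aggregation, had just ended a CHIR pulse given from 48 to 72 h at 72 h, and was 24 h past that pulse at 96 h. The Early arm had received its pulse from 24 to 48 h, so that it stood at the end of the pulse at 48 h, 24 h past it at 72 h and 48 h past it at 96 h. Each group therefore shares the genotype and strain and differs in age and in the window of the pulse, and at 48 h only the Early libraries had seen CHIR. Gastruloids of a condition were pooled before RNA extraction, and the labels name no separate cultures, so the p-values below rest on the spread among these libraries alone, and that spread may be technical.

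Cells short of an amino acid, or with a loaded endoplasmic reticulum, phosphorylate the translation initiation factor eIF2 alpha. General translation then falls while the Atf4 messenger, whose upstream reading frames normally hold it back, is translated, so that Atf4 protein is set largely after transcription and its mRNA level is not a reading of the protein. Atf4 binds DNA as a dimer with other bZIP proteins, often at C/EBP-ATF composite elements, and switches on amino acid synthesis, amino acid transport, tRNA charging and a group of stress regulators. The pathway is also active in growing cells without stress, and mouse embryonic stem cells are known for their high use of threonine.

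In the deposited coordinates on mm10 the members lie at Atf4 (chr15:80255184-80257541), Atf5 (chr7:44812256-44816658), Ddit3 (chr10:127290774-127296288), Trib3 (chr2:152337422-152344032), Chac1 (chr2:119351229-119354381), Asns (chr6:7675169-7693254), Psat1 (chr19:15904678-15947337), Phgdh (chr3:98313170-98339990), Slc7a11 (chr3:49892526-50443614) and Ddit4 (chr10:59949669-59951834). RefSeq promoters of build GRCm38.p6, 250 bases before to 50 after each start, were present for all 10 members. They were searched on both strands for TGATGNAA (TTNCATCA on the other strand), the core of the C/EBP-ATF composite element, and for TGACGTCA, the cAMP response element, and no stretch can match both at the same place. TGATGNAA stood in the promoters of 4 members, Asns, Chac1, Slc7a11 and Trib3, and in 1304 of all 32851 promoters (3.97%). TGACGTCA stood in 0 member promoters and in 588 of all promoters (1.79%). The 10 members have 12 promoters, with 2 each for Atf5 and Psat1, and the 32851 promoters belong to 27025 genes. The share of all genes with a match was not computed, so the 4 members and the 3.97% are in different units. The 60 bases around the matches are shown for the 3 of these genes whose matches lie upstream of the RefSeq start. Levels played no part in that choice. Each is written 5′ to 3′ on the strand of its gene, and capitals mark the match.
Chac1, chr2:119351023-119351082, plus strand: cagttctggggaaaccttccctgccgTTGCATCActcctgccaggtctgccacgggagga
Slc7a11, chr3:50443637-50443696, minus strand: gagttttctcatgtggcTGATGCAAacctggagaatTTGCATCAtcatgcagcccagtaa
Asns, chr6:7693210-7693269, minus strand: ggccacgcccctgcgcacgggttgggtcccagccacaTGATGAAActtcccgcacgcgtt
The Chac1 match lies 193 to 186 bases before the RefSeq start and reads as the element on the other strand. Slc7a11 carries 1 match on each strand, 66 to 59 and 47 to 40 bases before its start. The Asns match lies 23 to 16 bases before its RefSeq start, but inside the deposited locus, at chr6:7693225-7693232. In Trib3 the match lies 15 to 22 bases after the RefSeq start, but upstream of the deposited locus, at chr2:152344039-152344046. The RefSeq and deposited starts of Asns and Trib3 differ, so these placements hold for the RefSeq starts only. A match is a description of letters, not a measured binding site.

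Libraries held 14841728 to 24536538 counts. Of the controls, replicate 3 lay mostly to one side: at 48 h it was above both other libraries for 8 of the 10 members, at 72 h below both for 7 and at 96 h below both for 8, so each result below was also computed without these 3 libraries. In the Early arm replicate 3 was above both for 3 members and below both for 1 at 48 h, 3 and 5 at 72 h, and 4 and 4 at 96 h. No such count was made over all genes. Marker genes of gastruloids were expressed. The summed level of 8 pluripotency and epiblast genes was 2425 to 2498 CPM in the controls of 48 h, 1856 to 2124 CPM at 72 h and 334 to 626 CPM at 96 h, against 2601 to 2733 CPM, 2710.1 to 2741 CPM and 2549 to 2715 CPM in the Early arm. The sum of 8 primitive streak and mesoderm genes was 8.10 to 9.23 CPM, 1124 to 1571 CPM and 1277 to 1896 CPM in the controls and 93.0 to 105 CPM, 74.8 to 77.4 CPM and 669 to 863 CPM in the Early arm. The sums do not describe each gene. Of the streak and mesoderm genes, 4 were called higher and 0 lower in the Early arm at 48 h, 0 and 5 at 72 h, and 1 and 5 at 96 h. At 96 h Eomes was higher (mean 174 against 2.45 CPM) and Cdx2 lower (3.55 against 283 CPM). Of the pluripotency and epiblast genes, 2 were higher and 3 lower at 48 h, 5 and 1 at 72 h, and 7 and 0 at 96 h. Shares of all tested genes are given below. In the controls the pluripotency sum fell with age, as most members below did, and the streak sum was higher after 48 h. In the Early arm the pluripotency sum stayed within 2549 to 2741 CPM while most members fell, but its genes moved in opposite directions. From 48 to 72 h 2 were called higher and 2 lower, and from 72 to 96 h 2 higher and 4 lower. In the later step the mean of Utf1 went from 241 to 92.6 CPM and that of Nanog from 209 to 371 CPM. The part of these sums in the results was not tested. In bulk RNA, fewer cells of a type and less RNA per cell cannot be told apart. Of 7 fibroblast and feeder markers 3 were expressed enough to be tested, their sum reached at most 39.3 CPM, and Lum was at 0 in all libraries. All 3 were called lower in the Early arm at 48 h, where the sum was 6.57 to 9.27 CPM against 18.2 to 21.7 CPM in the controls. At 72 h 1 was higher and 0 lower. At 96 h Thy1 was higher (0.64 ± 0.14, adjusted p = 6.21e-04) and Col1a2 lower (-2.95 ± 0.37, 2.07e-06). The blood and endothelium sum ran from 1.56 to 78.3 CPM, and Hbb-bt was at 0 in all libraries. That sum follows Pecam1, which pluripotent cells also express: it was 72.3 to 78.3 CPM in the Early libraries of 48 h against 14.2 to 20.4 CPM in the controls, and 9.85 to 11.1 CPM against 1.56 to 3.98 CPM at 96 h. The trophoblast sum was at most 1.67 CPM, with Tpbpa and Prl3d1 at 0. Of 5 mitochondrial genes, used as a sign of RNA quality, only mt-Cytb was called between the arms at a shared age, at 96 h (-0.40 ± 0.16, adjusted p = 0.0355). It was also higher in the controls of 72 h than in those of 48 h (0.40 ± 0.16, 0.0336). The part of these markers in the results was not tested.

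At each shared age the Early arm held more mRNA of most of these genes than the controls, and less of Ddit4. At 48 h, directly after the early pulse and before any pulse in the controls, 8 of 10 members were higher in the Early arm and 1 was lower, at an adjusted p under 0.05 (edgeR's quasi-likelihood test with Benjamini-Hochberg adjustment over all tested genes, which holds for every adjusted p given here unless another tool is named). Of all tested genes, 43.7% were called, 23.0% higher and 20.7% lower. At 72 h 8 members were higher and 1 lower, where 44.9% of tested genes were called, 21.7% higher and 23.2% lower. At 96 h the counts were again 8 and 1, where 59.1% of tested genes were called, 29.5% higher and 29.6% lower. The lower member was Ddit4 at each age, and the member not called was Slc7a11 at 48 h and Ddit3 at 72 and 96 h. The median log2 fold change over the 10 members was 0.31 at 48 h, 0.41 at 72 h and 0.57 at 96 h, beside 0.017, -0.021 and -0.0057 over all tested genes. The libraries of the arms did not overlap for 10 members at 48 h and for 9 at 72 and at 96 h, where they did not overlap for 56.1%, 57.4% and 61.2% of tested genes. Without the 3 control libraries numbered 3 the members called in either direction were 10, 9 and 9, where 47.6%, 49.9% and 62.7% of tested genes were called.

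**Figure D1:**
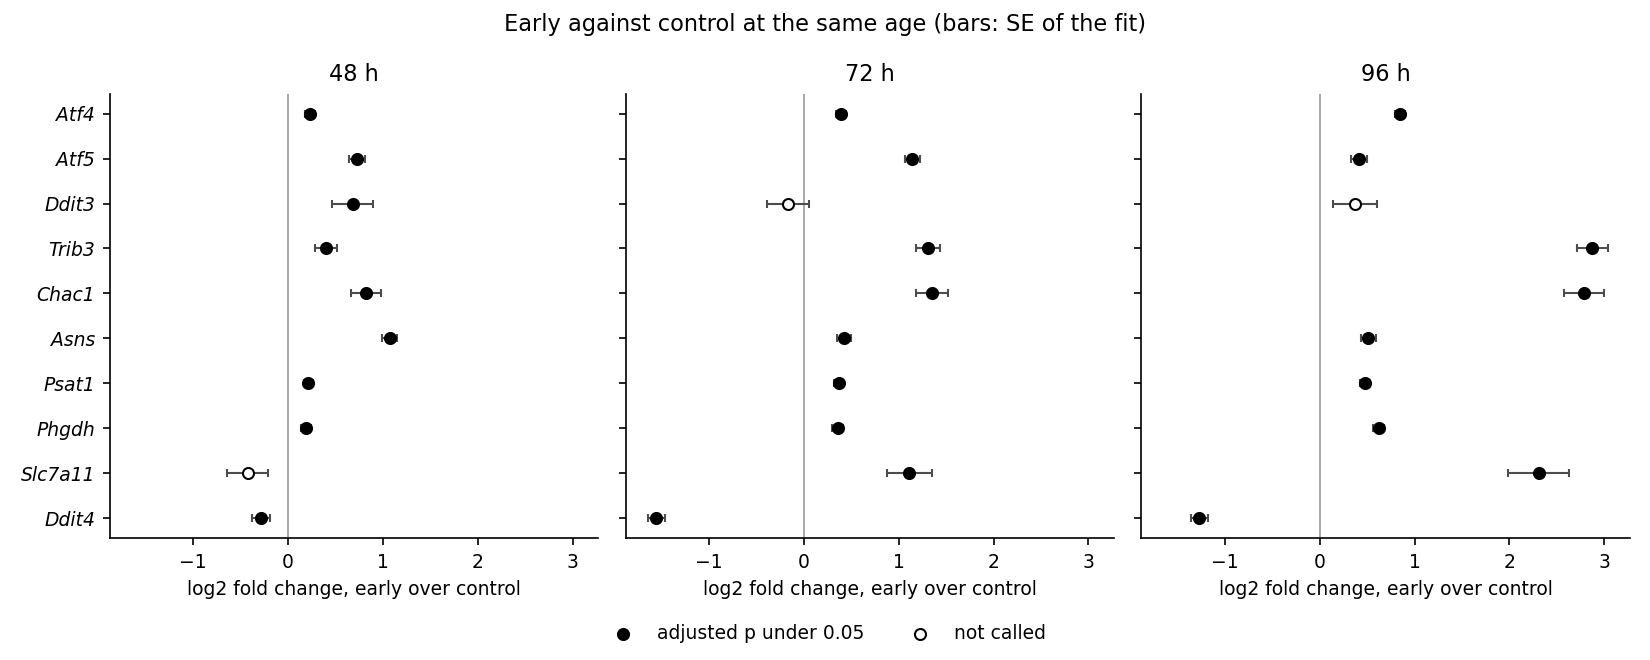
Log2 fold change of Early over CTL (x axis) for each of the 10 members at 48, 72 and 96 h, with bars for the standard error. Trib3, Chac1 and Slc7a11 lie farthest to the right at 96 h (2.87, 2.79 and 2.31), and Ddit4 lies left of 0 at each age.

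Atf4, the hub of the response, was abundant in every group. Atf4 stood at 272, 274 and 285 CPM (counts scaled to the same library size) in the untreated controls of 48 h, at 228, 229 and 208 CPM in the controls of 72 h and at 144, 135 and 150.2 CPM in those of 96 h, in replicate order as everywhere below. Early libraries of Atf4 held 326, 309 and 340.1 CPM at 48 h, 287, 293 and 297 at 72 h and 240.1, 269 and 265 at 96 h. All 3 Early libraries were above all 3 controls at each age, and the gap grew as the controls fell. The difference was 1.17-fold at 48 h (log2 fold change 0.23 ± 0.052, adjusted p = 0.00164), 1.32-fold at 72 h (log2 fold change 0.40 ± 0.053, adjusted p = 8.07e-06) and 1.80-fold at 96 h (log2 fold change 0.85 ± 0.053, adjusted p = 2.36e-10). From the Early libraries of 48 h at 325 ± 15.7 CPM (SD, n = 3) to the controls of 96 h at 143 ± 7.69 CPM (SD, n = 3) the groups fell in the order Early 48 h, Early 72 h, CTL 48 h, Early 96 h, CTL 72 h and CTL 96 h, and no neighbours in that order overlapped. The whole span was 2.27-fold.

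Atf5 encodes a related bZIP factor whose translation is held back in the same way and which is known from the mitochondrial stress response. Atf5 was at 33.3, 32.1 and 35.9 CPM in the controls of 48 h, 46.2, 41.0 and 38.6 at 72 h and 47.6, 44.8 and 37.7 at 96 h. Early libraries of Atf5 held 54.0, 52.5 and 61.2 CPM at 48 h, 91.7, 91.6 and 95.2 at 72 h and 54.5, 60.8 and 59.1 at 96 h. The Early libraries of 72 h stood above all others, and every Early library was above every control library of its age. Atf5 was 1.66-fold higher in the Early arm at 48 h (log2 fold change 0.73 ± 0.085, adjusted p = 1.32e-06), 2.21-fold at 72 h (log2 fold change 1.14 ± 0.082, adjusted p = 4.66e-09) and 1.34-fold at 96 h (log2 fold change 0.42 ± 0.083, adjusted p = 2.76e-04). In the order of groups, Early 96 h and Early 48 h overlapped, as did CTL 96 h and CTL 72 h. The deposited FPKM table lists Atf5 at 0 in 5 control libraries whose counts were 560 to 653, so its FPKM values were not relied on: limma on log2(FPKM + pseudocount) gave adjusted p-values of 0.109 to 0.180 at 72 h and 0.281 to 0.340 at 96 h. Of its exon bases, 4.11% are shared with the opposite-strand genes Il4i1 and Nup62, and whether the counting used strand is not given in the sources used here.

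Ddit3 encodes CHOP, a bZIP factor tied to prolonged stress and cell death, and it was scarce: its libraries held 21 to 85 counts. Ddit3 was at 2.29, 2.13 and 2.82 CPM in the controls of 48 h, 3.68, 2.92 and 2.08 at 72 h and 2.15, 2.01 and 1.31 at 96 h. Early libraries of Ddit3 held 4.11, 3.38 and 4.06 CPM at 48 h, 3.13, 2.40 and 2.26 at 72 h and 2.38, 2.04 and 2.83 at 96 h. The arms were apart at 48 h and overlapped at 72 and 96 h, and all 5 neighbouring pairs in the order of groups overlapped. At 48 h Ddit3 was 1.61-fold higher in the Early arm (log2 fold change 0.69 ± 0.22, adjusted p = 0.0153), and the call was lost without control replicate 1 (adjusted p = 0.0528), control replicate 2 (0.0680) or Early replicate 1 (0.0560). It was not called at 72 h (log2 fold change -0.16 ± 0.22, adjusted p = 0.570) or at 96 h (log2 fold change 0.37 ± 0.23, adjusted p = 0.178). At 72 h the value without control replicate 1 was 0.053, on the other side of 0. The symbol stands on 2 rows of the count table. The row ENSMUSG00000025408.15 is the one used here, the other was at 0 in every library, and 6.13% of the exon bases are shared between them and 4.73% with the opposite-strand genes Mars and Gm4189. The FPKM table lists Ddit3 at 0 in all 18 libraries.

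**Figure D2:**
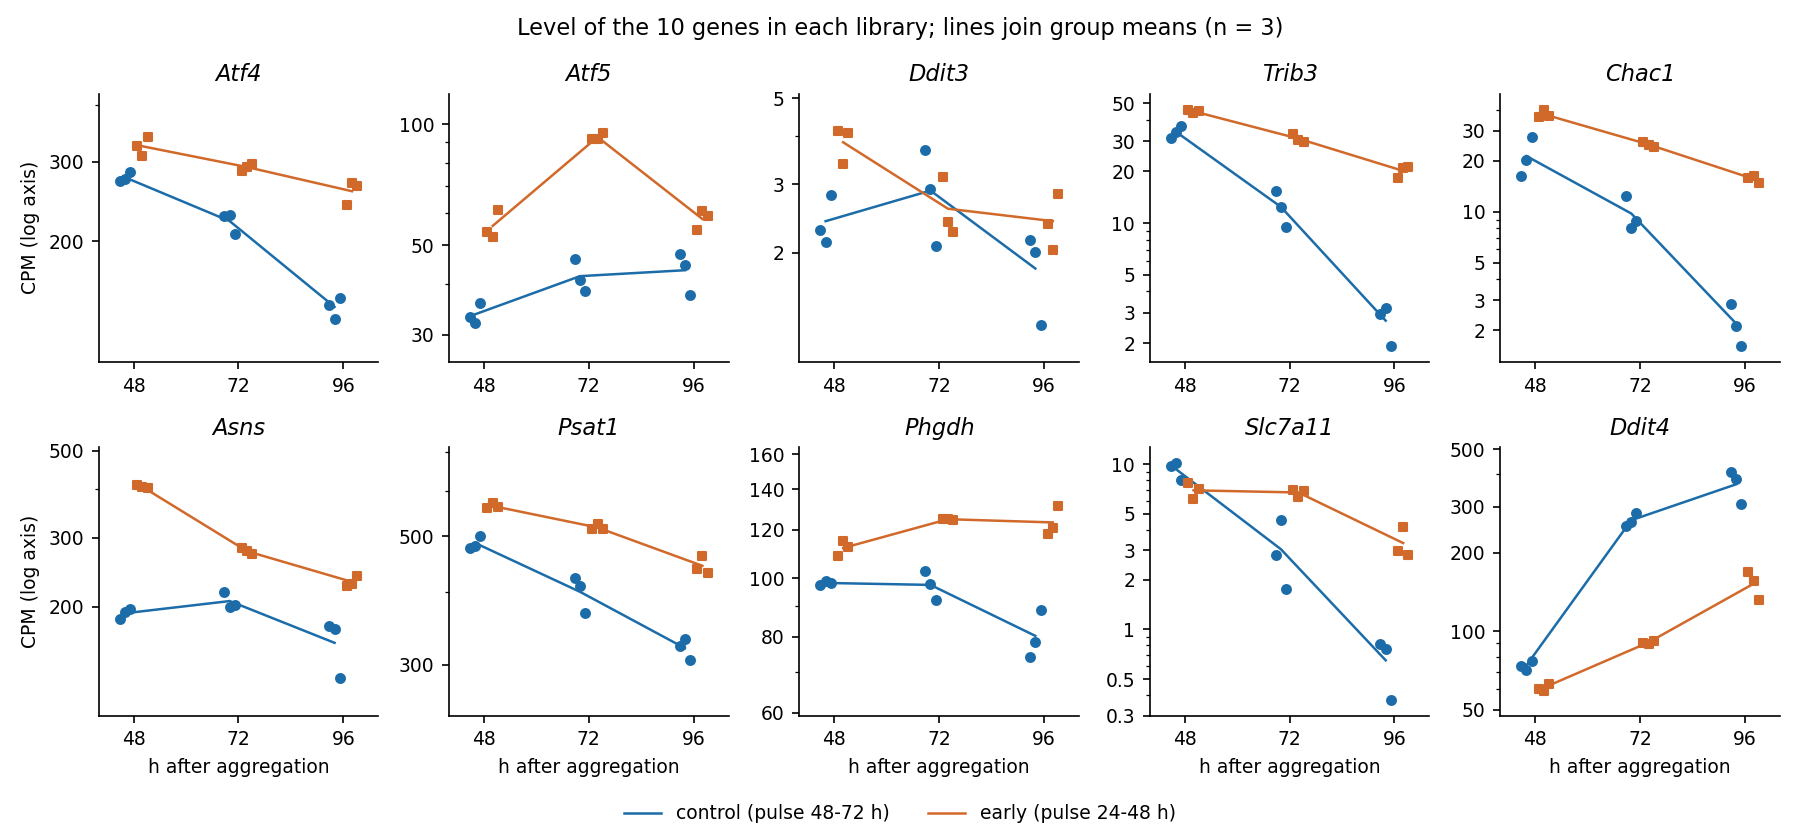
CPM on a log axis (y) of each member in each of the 18 libraries, by age and arm (x), 1 panel a gene. Points are libraries and lines join group means; Trib3, Chac1 and Slc7a11 fall steeply in the controls, to 1.93 to 3.20 CPM for Trib3 at 96 h, and Ddit4 rises.

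The stress regulators Trib3 and Chac1 had the widest spans among the members, and both were called higher in the Early arm at all ages. Trib3 is a pseudokinase that is induced by Atf4 and CHOP and dampens their activity. Trib3 was at 31.4, 33.9 and 36.7 CPM in the controls of 48 h, 15.5, 12.4 and 9.49 at 72 h and 2.97, 3.20 and 1.93 at 96 h. Early libraries of Trib3 held 45.5, 43.7 and 45.2 CPM at 48 h, 32.9, 30.5 and 29.7 at 72 h and 18.2, 20.9 and 21.3 at 96 h. Every Early library was above every control of its age. The fold was 1.32 at 48 h (log2 fold change 0.40 ± 0.12, adjusted p = 0.0104), 2.48 at 72 h (log2 fold change 1.31 ± 0.13, adjusted p = 2.42e-07) and 7.32 at 96 h (log2 fold change 2.87 ± 0.16, adjusted p = 5.52e-11). The call at 48 h was lost without control replicate 1 (adjusted p = 0.0555) and on the deposited FPKM (limma, adjusted p = 0.0887 to 0.184). Highest to lowest, the order was Early 48 h, CTL 48 h, Early 72 h, Early 96 h, CTL 72 h and CTL 96 h, a span of 16.6-fold, and only CTL 48 h and Early 72 h overlapped.

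Chac1 encodes an enzyme that breaks down glutathione, and its promoter carries the match shown above. Chac1 was at 16.3, 20.1 and 27.6 CPM in the controls of 48 h, 12.4, 8.08 and 8.84 at 72 h and 2.84, 2.12 and 1.62 at 96 h. Early libraries of Chac1 held 36.3, 39.9 and 36.6 CPM at 48 h, 25.8, 24.9 and 24.1 at 72 h and 15.9, 16.2 and 14.8 at 96 h. The untreated controls spread widely, from 16.3 to 27.6 CPM, and still lay below every Early library of 48 h. Chac1 was 1.77-fold higher in the Early arm at 48 h (log2 fold change 0.83 ± 0.16, adjusted p = 2.96e-04), 2.55-fold at 72 h (log2 fold change 1.35 ± 0.17, adjusted p = 4.15e-06) and 6.90-fold at 96 h (log2 fold change 2.79 ± 0.21, adjusted p = 2.63e-09). Its groups spanned 17.1-fold, with Early 48 h at the top and CTL 96 h at the bottom, and only Early 72 h and CTL 48 h overlapped as neighbours.

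The synthesis enzymes were abundant and spanned less than Trib3 and Chac1. Asns makes asparagine from aspartate. Asns was at 186, 194 and 197 CPM in the controls of 48 h, 218, 199.9 and 202 at 72 h and 178, 175 and 132 at 96 h. Early libraries of Asns held 408, 404 and 401 CPM at 48 h, 282, 277 and 272 at 72 h and 226, 229 and 239 at 96 h. Its highest group was the end of the early pulse, where it was 2.10-fold above the controls (log2 fold change 1.07 ± 0.076, adjusted p = 2.01e-09). The difference was 1.34-fold at 72 h (log2 fold change 0.42 ± 0.075, adjusted p = 1.85e-04) and 1.43-fold at 96 h (log2 fold change 0.51 ± 0.076, adjusted p = 1.25e-05), and the arms were apart at each age. The groups spanned 2.50-fold with no overlap between neighbours in the order Early 48 h, Early 72 h, Early 96 h, CTL 72 h, CTL 48 h and CTL 96 h.

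Phgdh and Psat1 catalyse the first steps of serine synthesis from a glycolytic intermediate. Phgdh was at 97.5, 98.7 and 98.3 CPM in the controls of 48 h, 103, 97.7 and 91.9 at 72 h and 74.1, 78.3 and 88.5 at 96 h. Early libraries of Phgdh held 109, 115 and 112 CPM at 48 h, 125, 125 and 125 at 72 h and 118, 121 and 131 at 96 h. All Early libraries were above all controls of all ages, in a span of 1.56-fold, the narrowest of the set. Phgdh was 1.14-fold higher at 48 h (log2 fold change 0.19 ± 0.058, adjusted p = 0.0117), 1.28-fold at 72 h (log2 fold change 0.36 ± 0.057, adjusted p = 6.14e-05) and 1.54-fold at 96 h (log2 fold change 0.62 ± 0.058, adjusted p = 4.20e-08). The 48 h call was lost on FPKM (limma, adjusted p = 0.0839 to 0.122). Early 72 h and Early 96 h overlapped, as did CTL 48 h and CTL 72 h.

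Psat1 was at 478, 481 and 502 CPM in the controls of 48 h, 423, 411 and 369 at 72 h and 323, 332 and 306 at 96 h. Early libraries of Psat1 held 560.4, 571 and 562 CPM at 48 h, 515, 525 and 515 at 72 h and 439, 462 and 433 at 96 h. Its groups stood in the same order as those of Atf4, with no overlap between neighbours, over a span of 1.76-fold. The difference between the arms was 1.16-fold at 48 h (log2 fold change 0.21 ± 0.047, adjusted p = 0.00111), 1.29-fold at 72 h (log2 fold change 0.37 ± 0.047, adjusted p = 4.63e-06) and 1.39-fold at 96 h (log2 fold change 0.47 ± 0.047, adjusted p = 9.70e-08). Per kilobase of exon, the mean level over the 6 groups was 107 CPM for Atf4, 107 for Psat1, 96.0 for Ddit4, 89.8 for Asns, 42.7 for Phgdh, 27.3 for Atf5, 11.4 for Trib3, 11.4 for Chac1, 1.56 for Ddit3 and 0.359 for Slc7a11. On that scale the hub factor and the synthesis enzymes stood far above CHOP and the cystine transporter.

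Slc7a11 is the light chain of the antiporter that imports cystine in exchange for glutamate and so feeds glutathione synthesis. Slc7a11 was at 9.78, 10.1 and 8.01 CPM in the controls of 48 h, 2.82, 4.59 and 1.75 at 72 h and 0.813, 0.760 and 0.374 at 96 h. Early libraries of Slc7a11 held 7.64, 6.14 and 7.04 CPM at 48 h, 6.99, 6.36 and 6.85 at 72 h and 2.98, 4.17 and 2.83 at 96 h. The untreated controls were its highest group and the controls of 96 h its lowest, with 20, 14 and 6 counts, a span of 14.3-fold. At 48 h all Early libraries were below all controls, and the difference was not called (log2 fold change -0.42 ± 0.21, adjusted p = 0.117). It was called without the 3 control libraries numbered 3 (-0.52, adjusted p = 0.00323), with no filter on low counts (0.0395), when only the 2 groups were fitted (0.0112) and on log2(FPKM + 1) with limma (0.0318). It stayed uncalled with DESeq2 size factors, the DESeq2 Wald test, the replicate block, the other FPKM settings and each library left out in turn. Slc7a11 was 2.16-fold higher in the Early arm at 72 h (log2 fold change 1.11 ± 0.24, adjusted p = 8.60e-04) and 4.95-fold at 96 h (log2 fold change 2.31 ± 0.32, adjusted p = 5.85e-06). The standard error can understate the uncertainty at counts this low. Early 48 h and Early 72 h overlapped, as did Early 96 h and CTL 72 h.

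Ddit4 encodes REDD1, an inhibitor of mTORC1 that also answers to hypoxia, p53 and glucocorticoids, and it ran opposite to most other members. Ddit4 was at 73.7, 71.2 and 77.1 CPM in the controls of 48 h, 254, 262 and 284 at 72 h and 407, 384 and 308 at 96 h. Early libraries of Ddit4 held 60.2, 59.2 and 62.9 CPM at 48 h, 90.4, 89.7 and 92.1 at 72 h and 169, 156 and 132 at 96 h. No neighbouring groups overlapped in the order CTL 96 h, CTL 72 h, Early 96 h, Early 72 h, CTL 48 h and Early 48 h, a span of 6.03-fold. Ddit4 was 1.22-fold lower in the Early arm at 48 h (log2 fold change -0.28 ± 0.093, adjusted p = 0.0190), 2.94-fold lower at 72 h (log2 fold change -1.56 ± 0.089, adjusted p = 2.29e-10) and 2.41-fold lower at 96 h (log2 fold change -1.27 ± 0.087, adjusted p = 7.71e-10). The small difference at 48 h lost its call without control replicate 3 (adjusted p = 0.0646), Early replicate 1 (0.0558) or Early replicate 2 (0.0599).

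Within the control arm most members fell with age while Ddit4 rose. From 48 to 72 h, over the control pulse, Atf4, Trib3, Chac1, Psat1 and Slc7a11 fell and Atf5 and Ddit4 rose, 5 and 2 of 10, where 61.4% of tested genes were called, 30.3% lower and 31.1% higher. The largest changes were those of Ddit4 (log2 fold change 1.85 ± 0.090, adjusted p = 5.62e-12), Slc7a11 (log2 fold change -1.59 ± 0.23, adjusted p = 9.71e-06) and Trib3 (log2 fold change -1.44 ± 0.13, adjusted p = 2.24e-08). Atf4 fell by less (log2 fold change -0.32 ± 0.053, adjusted p = 3.56e-05), and Atf5 rose by 0.32 ± 0.086 (adjusted p = 0.00356). Asns (0.10 ± 0.076), Phgdh (-0.0100 ± 0.058) and Ddit3 (0.28 ± 0.22) were not called. All values of this step come from an unpaired fit, although same-numbered libraries of these 2 groups were correlated, as given in the processing section. Without the 3 control libraries numbered 3, Asns and Ddit3 were called higher at 72 h, by 0.13 (adjusted p = 0.0222) and 0.57 (0.0250). The mitochondrial mt-Cytb also rose over this step, as given above, and its part in these changes was not tested.

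From 72 to 96 h, in the day after the control pulse, 8 of 10 members fell and Ddit4 rose, where 54.9% of tested genes were called, 27.4% lower and 27.5% higher. Slc7a11 (log2 fold change -2.20 ± 0.32, adjusted p = 1.46e-05), Trib3 (log2 fold change -2.19 ± 0.17, adjusted p = 4.72e-09) and Chac1 (log2 fold change -2.11 ± 0.22, adjusted p = 2.25e-07) fell most. Ddit3 (log2 fold change -0.65 ± 0.23, adjusted p = 0.0217) and Atf4 (log2 fold change -0.63 ± 0.053, adjusted p = 1.61e-08) followed, and Asns (-0.35 ± 0.076), Psat1 (-0.32 ± 0.047) and Phgdh (-0.28 ± 0.058) fell by less. The call of Ddit3 was lost without CTL 72 h replicate 1 (adjusted p = 0.148), without CTL 96 h replicate 3 (0.0781) and when only the groups compared were fitted (0.0930). Ddit4 rose by 0.46 ± 0.085 (adjusted p = 1.72e-04), and Atf5 was not called (0.052 ± 0.084). The median over the members was -0.49, and -0.15 for the step before, beside -0.010 and 0.013 over all tested genes. These steps share the controls of 72 h.

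In the Early arm most members also fell and Ddit4 also rose. From 48 to 72 h, the day after its pulse, 6 members fell and 3 rose, where 42.6% of tested genes were called, 21.9% lower and 20.7% higher. Chac1 (log2 fold change -0.59 ± 0.15, adjusted p = 0.00473), Asns (log2 fold change -0.55 ± 0.075, adjusted p = 1.59e-05) and Trib3 (log2 fold change -0.53 ± 0.12, adjusted p = 0.00158) fell, and Atf5 (log2 fold change 0.73 ± 0.081, adjusted p = 1.51e-06) and Ddit4 (log2 fold change 0.58 ± 0.092, adjusted p = 7.28e-05) rose. Slc7a11 was not called (-0.049 ± 0.22). The calls of 4 other members hung on single libraries. Atf4 fell by 0.15 ± 0.052 (adjusted p = 0.0245), with p-values of 0.0620, 0.119, 0.0839 and 0.0580 without Early 48 h replicate 1 or 3 or Early 72 h replicate 1 or 2. Psat1 fell by 0.12 ± 0.047 (0.0396) and lost its call without any of the 6 libraries in turn, with p from 0.0653 without Early 72 h replicate 2 to 0.107 without Early 48 h replicate 2. Phgdh rose by 0.16 ± 0.057 (0.0325) and lost its call without Early 48 h replicate 1 (0.121), Early 48 h replicate 3 (0.0676) or Early 72 h replicate 1, 2 or 3 (0.0734, 0.0749 and 0.0703). Ddit3 fell by 0.57 ± 0.21 (0.0379) and lost its call without Early 48 h replicate 1 (0.114) or 3 (0.0997) or Early 72 h replicate 2 (0.124) or 3 (0.127). Over the alternatives, 4938 to 8554 of all genes were called in this step, beside 6837 in the main analysis. The number of members called was 5 without Early 48 h replicate 1, without Early 48 h replicate 3 or without Early 72 h replicate 2. On FPKM with limma, where Ddit3 has no values and was left out, it was 3 to 5. Among the calls lost there were the falls of Chac1 and Trib3, on log2(FPKM + 0.1) (adjusted p = 0.0960 and 0.113) and on log2(FPKM + 1) with all genes (0.0626 and 0.0604).

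From 72 to 96 h 7 members of the Early arm fell and Ddit4 rose, where 35.3% of tested genes were called, 17.6% lower and 17.6% higher. Slc7a11 (log2 fold change -1.003 ± 0.23, adjusted p = 0.00258), Atf5 (log2 fold change -0.67 ± 0.080, adjusted p = 5.41e-06), Chac1 (log2 fold change -0.67 ± 0.16, adjusted p = 0.00334) and Trib3 (log2 fold change -0.62 ± 0.12, adjusted p = 7.53e-04) fell most, and Ddit4 rose by 0.75 ± 0.089 (adjusted p = 5.25e-06). Asns (-0.26 ± 0.075), Psat1 (-0.22 ± 0.047) and Atf4 (-0.18 ± 0.052) fell by less, and Phgdh (-0.018 ± 0.057) and Ddit3 (-0.12 ± 0.22) were not called. The fall of Atf4 lost its call without Early 96 h replicate 1 (adjusted p = 0.0878, against 0.0138 with it). On FPKM with limma neither Atf4 (0.115 to 0.166) nor Asns (0.0861 to 0.117) was called. In all, 5 members were called on FPKM, where Ddit3 has no values and was left out. The medians of these Early steps were -0.14 and -0.24, beside -0.0026 and 0.0079 over all tested genes.

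The question whether the day after a pulse changed the genes alike in both arms was addressed by the difference of the steps, Early 48 to 72 h minus CTL 72 to 96 h, with age differing by a day between the arms. Of the 10 members 7 had a step that was higher in the Early arm and 0 a lower one, where 44.5% of tested genes differed, 22.8% higher. The difference was 2.15 ± 0.39 for Slc7a11 (adjusted p = 2.39e-04), 1.66 ± 0.21 for Trib3 (4.35e-06), 1.52 ± 0.27 for Chac1 (1.82e-04) and 0.68 ± 0.12 for Atf5 (1.23e-04), in log2 units. It was 0.48 ± 0.075 for Atf4 (4.75e-05), 0.44 ± 0.082 for Phgdh (2.63e-04) and 0.20 ± 0.066 for Psat1 (0.0196). The Slc7a11 difference lost its call with limma on log2(FPKM + 1) with all genes (0.26, adjusted p = 0.0636), and that of Atf5, whose FPKM values were not relied on, on each FPKM setting. The difference was not called for Ddit4 (0.12 ± 0.12), Ddit3 (0.084 ± 0.31) and Asns (-0.19 ± 0.11), which does not show that these steps were equal. For Asns it was called, at -0.31 (adjusted p = 1.76e-04), without CTL 96 h replicate 3. The sign of the Ddit4 value turned without the 3 control libraries numbered 3 (-0.032).

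**Figure D3:**
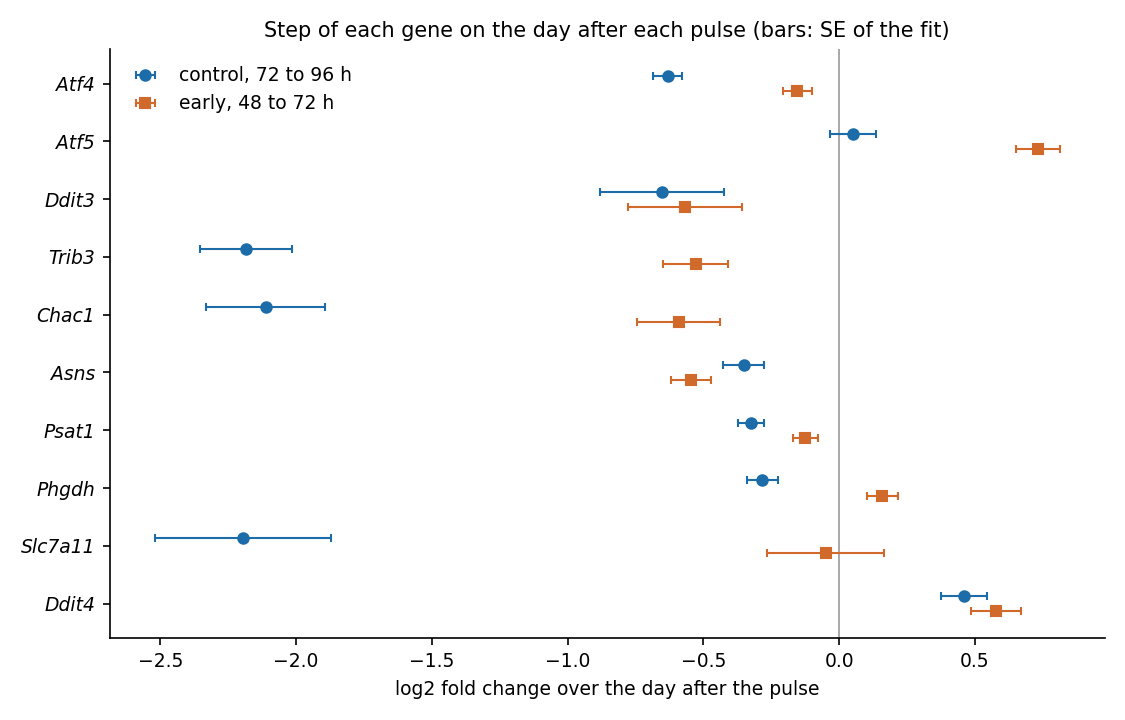
Log2 fold change over the day after the pulse (x axis) for each member in the CTL arm, 72 to 96 h, and in the Early arm, 48 to 72 h, with bars for the standard error. Slc7a11, Trib3 and Chac1 lie far to the left in the controls (-2.20, -2.19 and -2.11) and nearer to 0 in the Early arm (-0.049, -0.53 and -0.59).

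The arms were also compared at the same time after the pulse instead of the same age, and most members were again higher in the Early arm. At the end of the pulse (Early 48 h against CTL 72 h) 8 members were higher in the Early arm and Ddit4 was lower, where 61.1% of tested genes were called, 29.5% higher and 31.7% lower. Chac1 was 3.84-fold higher (log2 fold change 1.94 ± 0.17, adjusted p = 1.57e-08), Trib3 3.58-fold (log2 fold change 1.84 ± 0.13, adjusted p = 9.65e-10) and Asns 1.96-fold (log2 fold change 0.97 ± 0.075, adjusted p = 4.12e-09), and Ddit4 was 4.39-fold lower (log2 fold change -2.13 ± 0.092, adjusted p = 1.82e-12). One day after the pulse (Early 72 h against CTL 96 h) 8 were again higher and Ddit4 lower, where 69.7% of tested genes were called, 34.3% higher and 35.4% lower. Trib3 was 11.3-fold higher (log2 fold change 3.50 ± 0.16, adjusted p = 1.05e-12), Slc7a11 9.92-fold (log2 fold change 3.31 ± 0.30, adjusted p = 1.21e-08) and Atf4 2.04-fold (log2 fold change 1.03 ± 0.053, adjusted p = 7.46e-12). Chac1 was higher by 3.46 ± 0.20 on the log2 scale (adjusted p = 4.14e-11). The median over the members was 0.52 at the end of the pulse and 0.90 one day after it, beside -0.022 and -0.014 over all tested genes. Ddit3 was not called in either (0.40 ± 0.21 and 0.49 ± 0.23), but was without CTL 72 h replicate 1 in the former (adjusted p = 0.0341) and without CTL 96 h replicate 1 in the latter (0.0430). These comparisons share their libraries with those of the same age, so they add no independent samples.

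The gap between the arms widened from 72 to 96 h for 5 members and narrowed for Atf5, by the test of the change itself. Of tested genes 33.6% had such a change, 17.8% higher and 15.7% lower. The gap grew by 1.56 ± 0.21 for Trib3 (adjusted p = 1.69e-05), 1.44 ± 0.28 for Chac1 (5.45e-04), 1.19 ± 0.41 for Slc7a11 (0.0307), 0.45 ± 0.075 for Atf4 (1.31e-04) and 0.26 ± 0.081 for Phgdh (0.0176), and that of Atf5 changed by -0.73 ± 0.12 (9.94e-05). The Slc7a11 value lost its call without CTL 72 h replicate 2 (adjusted p = 0.110), Early 72 h replicate 2 (0.0563), CTL 96 h replicate 3 (0.0678) or Early 96 h replicate 2 (0.0847), and on log2(FPKM + 1) with limma its sign turned (-0.053, adjusted p = 0.730). Phgdh lost its call without CTL 72 h replicate 1 (0.0532), CTL 96 h replicate 1 (0.0559) or Early 96 h replicate 3 (0.0532). Ddit4 (0.29 ± 0.12), Ddit3 (0.54 ± 0.32), Psat1 (0.10 ± 0.066) and Asns (0.092 ± 0.11) were not called. Ddit4 was called without CTL 96 h replicate 1 (0.0252) or Early 96 h replicate 3 (0.0187), and Psat1 without CTL 72 h replicate 3 (0.0360).

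Lists of the other genes of the pathway were written from general knowledge. All of their genes were tested except Fgf21. Beside the counts of each list that follow, the shares of all tested genes called higher and lower in the Early arm were 23.0% and 20.7% at 48 h, 21.7% and 23.2% at 72 h, and 29.5% and 29.6% at 96 h. Of 14 further genes of amino acid and one-carbon synthesis, 9 were higher and 1 lower in the Early arm at 48 h, 11 and 0 at 72 h, and 10 and 1 at 96 h, with median log2 fold changes of 0.24, 0.40 and 0.46. At 48 h the higher ones included Shmt2 (0.46 ± 0.072, adjusted p = 4.14e-05), the mitochondrial serine hydroxymethyltransferase, and Shmt1 (0.23 ± 0.040, 1.06e-04), the cytosolic one, and Cbs (-0.38 ± 0.072, 3.15e-04), which starts the conversion of homocysteine to cysteine, was lower. At 96 h Cbs was higher (1.80 ± 0.080, 2.36e-12), as was Got1, an aspartate aminotransferase (0.74 ± 0.067, 3.43e-08), while Pycr1, which makes proline, was lower (-1.26 ± 0.17, 5.30e-06). Mthfd2, of the mitochondrial folate pathway, was among the higher ones at 72 h (0.69 ± 0.073, 5.88e-07). On the deposited FPKM with all genes, the higher count was 5 at 48 h and 7 at 72 h.

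Of 10 amino acid transporters, 5 were higher and 3 lower at 48 h, 8 and 1 at 72 h, and 6 and 1 at 96 h, with medians of 0.15, 0.62 and 0.31. Slc7a1 (1.05 ± 0.083, adjusted p = 8.46e-09), a transporter of cationic amino acids, was higher at 48 h, where Slc38a2 (-0.43 ± 0.045, 4.51e-07) and Slc7a3 (-0.47 ± 0.078, 9.08e-05) were lower. Slc7a3, another cationic transporter, was higher at 72 h (1.76 ± 0.084, 2.09e-11) and at 96 h (2.86 ± 0.092, 4.17e-14), so that like Slc7a11 it stood below the controls at 48 h and above them later. Slc3a2, the heavy chain that pairs with Slc7a11 and Slc7a5, was higher at all ages (0.37 ± 0.053, 0.63 ± 0.054 and 0.84 ± 0.054, adjusted p = 1.54e-05, 3.83e-08 and 3.76e-10). On FPKM with all genes the higher count at 48 h was 2.

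Of 12 tRNA synthetases known as Atf4-linked, 8, 11 and 10 were higher at 48, 72 and 96 h and 0 were lower, with medians of 0.16, 0.27 and 0.46. In the controls 12 of them fell from 48 to 72 h and 11 from 72 to 96 h, beside 30.3% and 27.4% of all tested genes. Over the alternatives these counts were 7 to 12 and 10 to 11. In the later step Wars rose (0.13 ± 0.039, adjusted p = 0.0102), the 1 rising gene, and that count was 0 without CTL 96 h replicate 3. Alanyl-tRNA synthetase, Aars, fell by 0.54 ± 0.040 and 0.63 ± 0.040 over these steps (adjusted p = 1.74e-09 and 4.43e-10). Of 8 other synthetases 3 were higher and 0 lower at 48 h, 3 and 1 at 72 h, and 5 and 2 at 96 h, with medians of 0.096, 0.063 and 0.13. The lower count at 48 h was 1 without CTL 48 h replicate 3. The higher count at 96 h was 3 without CTL 96 h replicate 1 or Early 96 h replicate 3, and the lower count 1 without CTL 96 h replicate 2. Qars, of glutamine, was lower at 72 h (-0.38 ± 0.035, 9.70e-08) and at 96 h (-0.25 ± 0.035, 8.11e-06). In the controls 5 of these 8 other synthetases fell and 1 rose from 48 to 72 h, and 6 fell and 1 rose from 72 to 96 h. Over the alternatives 3 to 5 and 5 to 6 fell. The difference between the synthetase lists was not tested.

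Of 9 bZIP partners and stress regulators, 5, 6 and 6 were higher at 48, 72 and 96 h, with medians of 0.66, 0.80 and 0.98. Sesn2, which restrains mTORC1 when leucine is short, was higher at all ages (0.88 ± 0.10, 0.59 ± 0.10 and 1.04 ± 0.11, adjusted p = 1.73e-06, 1.89e-04 and 1.83e-07), and so was Nupr1 (0.66 ± 0.18, 2.34 ± 0.25 and 2.40 ± 0.41, adjusted p = 0.00696, 5.93e-07 and 6.71e-05), a stress-induced chromatin protein. Cebpg, a dimer partner of Atf4, was lower at 48 h (-0.28 ± 0.091, 0.0197), the 1 lower call of the list, and that count was 0 without CTL 48 h replicate 1 or 3 or Early 48 h replicate 2 or 3. At 72 h 0 were lower, and 1 was without CTL 72 h replicate 3 or Early 72 h replicate 2. Of 7 genes for the eIF2 alpha kinases, the subunit and its phosphatase, 2 were higher and 2 lower at 48 h, 2 and 1 at 72 h, and 4 and 2 at 96 h, with medians of -0.0027, 0.11 and 0.27. The higher count was 0 at 48 h without CTL 48 h replicate 1 or 3 or Early 48 h replicate 1 or 3 and 1 without CTL 48 h replicate 2, and it was 4 at 72 h without CTL 72 h replicate 2. The lower count at 48 h was 1 without CTL 48 h replicate 1 or 2 or Early 48 h replicate 2. On FPKM the higher count was 0 at 48 and at 72 h. The kinase that senses uncharged tRNA, Eif2ak4, was lower at 72 h (-0.28 ± 0.054, 3.88e-04) and at 96 h (-0.31 ± 0.054, 7.79e-05). Ppp1r15a, the inducible phosphatase subunit that ends the response, was higher at 72 h (0.55 ± 0.097, 1.65e-04).

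Neighbouring stress pathways were counted beside it. Of 14 genes listed for the endoplasmic reticulum response outside Atf4, 2 were higher and 0 lower at 48 h, 4 and 2 at 72 h, and 8 and 0 at 96 h, with medians of 0.011, 0.015 and 0.21. Some of these genes may also answer to Atf4, which was not tested. The lower count was 1 at 48 h without CTL 48 h replicate 3 or Early 48 h replicate 3 and up to 3 on FPKM, 4 at 72 h without the 3 control libraries numbered 3, and 1 at 96 h without CTL 96 h replicate 3. The chaperone Hspa5, its usual readout, was 0.30 ± 0.042 at 96 h (adjusted p = 8.46e-06). Of 8 oxidative stress genes of Nrf2, 0 were higher and 3 lower at 48 h, 8 and 0 at 72 h, and 5 and 0 at 96 h. Gclm, the regulatory subunit of the first enzyme of glutathione synthesis, was -0.54 ± 0.089 at 48 h, 0.96 ± 0.090 at 72 h and 1.94 ± 0.097 at 96 h (adjusted p = 7.14e-05, 1.44e-07 and 1.03e-11). The lists were written with results of these data known, and no test of a list as a whole was made.

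**Figure D4:**
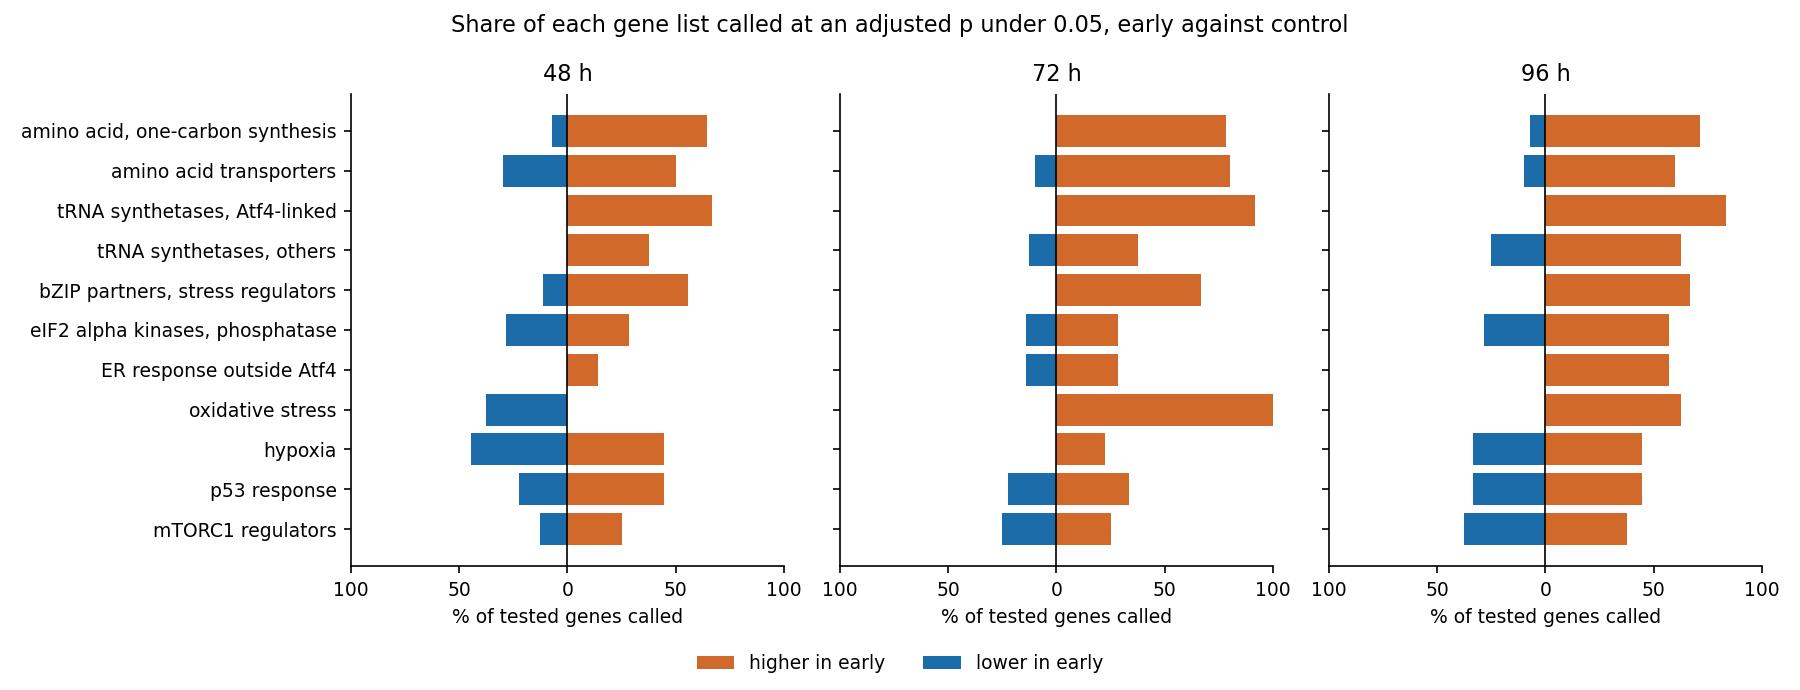
Share of the tested genes of each list (y axis) called higher (right of 0) and lower (left of 0) in the Early arm, in percent (x axis), at 48, 72 and 96 h. The Atf4-linked tRNA synthetases have 0 genes on the lower side at all ages, and the Nrf2 list changes sides between 48 h (3 genes lower) and 72 h (8 higher).

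The genes outside the set whose pattern was most like that of a member were found by the root mean square difference of log2 CPM, each gene centred on its own mean, over all 18 libraries and 10348 candidates. For Atf4 they were E2f4 (0.0764), Mrpl15 (0.0819), Hmgxb4 (0.0826) and Gars (0.0915), a glycyl-tRNA synthetase of the list above. For Asns they were Rmnd5b (0.115), Slc6a8 (0.122), Tm7sf3 (0.132) and B4galt6 (0.135). For Trib3 they were Klf9 (0.335), Chd5 (0.337), Chchd10 (0.338) and Zfp459 (0.340), all farther from it than the member Chac1 (0.222). Among the members, Psat1 was the nearest to Atf4 (0.145) and Ddit4 the farthest (1.32). Psat1 was also the member nearest to Asns (0.261). Unlike for Trib3, the outside genes named for Atf4 and for Asns were all nearer to them than any member. Trib3 (0.982) and Chac1 (0.954) stood far from Atf4 on this measure, which compares sizes as well as directions.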

How the data were processed

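PolyA RNA of 18 libraries was measured by RNA-seq. The submitters' processing notes name cutadapt 4.0, STAR 2.7.8a, Cufflinks 2.2.1 and the build mm10, without settings. The deposited count table holds the authors' raw counts per gene, and the deposited FPKM table the authors' FPKM, scaled by transcript length and library size. How reads were counted, strand included, is not given in the sources used here.

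Counts were filtered with filterByExpr, which left 16041 genes of 55385, scaled by TMM and fitted in 1 model of all 18 libraries and 6 group means (edgeR 4.0.16, R 4.3.3). Libraries held 14841728 to 24536538 counts. The 11 contrasts were tested 2-sided by the quasi-likelihood test, with Benjamini-Hochberg adjustment over all tested genes and calls at an adjusted p under 0.05. Standard errors (SE) were taken from the F statistic, as the absolute log2 fold change over its square root. CPM used the TMM-scaled library sizes, and CPM per kilobase divided by the exon length in GENCODE M21. Alternatives were DESeq2 size factors, DESeq2 1.42.0, no filter, the compared groups alone, a replicate block, limma 3.58.1 on log2(FPKM + 1) and log2(FPKM + 0.1), each library left out in turn, and the 3 control libraries numbered 3 left out together. FPKM lists Ddit3 at 0 throughout, so it has no FPKM alternative. Summaries and plots used Python 3.11.15, numpy 2.4.6, pandas 2.3.3 and matplotlib 3.10.9.

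Genes named beside the members come from up to 3 genes of a list with the lowest adjusted p and a mean of at least 5 CPM, and up to 3 that moved against the majority of their list, and not all of these are given. Same-numbered libraries were regarded as pairs where the deviations from the group means of all 3 pairs correlated at over 0.1. This held for CTL 48 h with CTL 72 h (0.163, 0.231 and 0.309) and for no other 2 groups. Labels name no shared culture or day. The main fit was unpaired throughout, and the replicate block spanned all 6 groups together. The members, lists, contrasts and the alternative without the control libraries numbered 3 were chosen with earlier results of these data known. A planned comparison of the Atf4, Atf5 and Ddit3 proteins was not made. Promoters came from RefSeq, GRCm38.p6.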

Additional observations from a re-analysis of the deposited data

Results flagged for a closer look

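The step over the day after the pulse differed between the arms for 7 members, where 44.5% of tested genes differed, by the test of the difference itself (Early 48 to 72 h minus CTL 72 to 96 h, in log2 units, edgeR's quasi-likelihood test). It was 2.15 for Slc7a11, 1.66 for Trib3, 1.52 for Chac1, 0.68 for Atf5, 0.48 for Atf4, 0.44 for Phgdh and 0.20 for Psat1, each higher in the Early arm.

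The difference between the arms also changed from 72 to 96 h for 6 members, where 33.6% of tested genes changed, by the same kind of test. The change was 1.56 for Trib3, 1.44 for Chac1, 1.19 for Slc7a11, 0.45 for Atf4 and 0.26 for Phgdh, where the gap grew, and -0.73 for Atf5, where it shrank. Both tests use the controls of 72 and 96 h and the Early libraries of 72 h, so they are not independent of each other.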

How the results depend on the processing

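The 110 values of the 10 members in 11 contrasts were recomputed 1737 times. Of these, 1600 kept direction and call, 95 lost the call (54 of them on FPKM, 27 for Atf5, which FPKM lists at 0 in 5 libraries), 15 gained it and 27 changed sign. DESeq2 size factors and the DESeq2 Wald test changed none of the 110. For steps that were small in the main analysis the cause of a change was not tested. The number of members called in the Early step from 48 to 72 h was 9, and 5 to 8 with 1 library left out. It was 5 on log2(FPKM + 1), 3 on log2(FPKM + 0.1) and 3 on log2(FPKM + 1) with all genes. In the Early step from 72 to 96 h it was 8, and 5 on each FPKM setting. FPKM counts leave out Ddit3, which was called in the main analysis of the first step only. Over the alternatives, 4938 to 8554 of all genes were called in the first step, beside 6837 in the main analysis. For the second step these numbers were 4374 to 7514 and 5656. The number of genes tested differed between alternatives. Ddit3 (21 to 85 counts a library) and Slc7a11 (down to 6) rest on few counts, which limits their precision.

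Signs turned mostly for values that were not called. On log2(FPKM + 1), with and without a filter, Phgdh became 0.080 (CTL 48 to 72 h) and 0.050 (Early 72 to 96 h), Slc7a11 0.027 (Early 48 to 72 h) and, called before, -0.053 (change of the gap from 72 to 96 h). On log2(FPKM + 0.1) the first 3 were 0.082, 0.050 and 0.067. Without the 3 control libraries numbered 3, Phgdh was 0.021 (CTL 48 to 72 h), Ddit4 -0.032 (difference of the steps after the pulse) and Asns -0.021 (change of the gap). With 1 library left out, values ranged from -0.13 to 0.028 for Slc7a11 and -0.25 to 0.037 for Ddit3 and -0.071 to 0.013 for Phgdh in the Early steps (48 to 72 h for Slc7a11, then 72 to 96 h), from -0.34 to 0.053 for Ddit3 between the arms at 72 h, from -0.054 to 0.031 for Phgdh (CTL 48 to 72 h) and -0.018 to 0.14 for Atf5 (CTL 72 to 96 h), and from -0.12 to 0.27 for Ddit3 and -0.035 to 0.17 for Asns in the differences of steps and gaps.

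The labels do not say that a replicate number marks a shared culture or day. Over 45 pairs of same-numbered libraries the correlation of their deviations from the group means over 10722 genes was -0.171 to 0.309, median 0.0547, and 12 pairs were over 0.1. Pairing was taken to hold between CTL 48 h and CTL 72 h alone. The step between these groups was fitted unpaired, and no fit paired them alone. The replicate block set the same replicate terms over all 6 groups, so it does not test that pairing by itself. With the replicate block, 9, 9 and 9 members were called between the arms at 48, 72 and 96 h, 7 and 9 in the control steps, 9 and 8 in the Early steps, 9 and 9 at matched times after the pulse, and 7 and 6 in the differences of steps and gaps, as without it, and no call of the 110 changed. In the same order, the block called 7195, 7424 and 9668, 9978 and 8979, 7072 and 5954, 9954 and 11312, and 7320 and 5595 of all tested genes.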

Other observations

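Ddit4 is also known as a gene of the hypoxia and p53 responses, and lists of these were counted at 96 h, where Ddit4 was lower in the Early arm and where 29.5% of all tested genes were higher and 29.6% lower. Of the hypoxia genes 4 of 9 were higher and 3 lower. Ndrg1 was higher (2.67 ± 0.28, adjusted p = 1.92e-07), as was Pdk1, which holds pyruvate back from the mitochondrion (0.79 ± 0.11, 7.39e-06). The glucose transporter Slc2a1 (-1.99 ± 0.18, 2.43e-08) and Vegfa (-0.49 ± 0.098, 3.11e-04) were lower. Of the p53 genes 4 of 9 were higher and 3 lower, with Mdm2 higher (0.38 ± 0.051, 3.89e-06) and Phlda3 lower (-0.63 ± 0.11, 8.35e-05). Of the mTORC1 regulators 3 of 8 were higher and 3 lower. Deptor, an inhibitor of the complex, was higher (1.53 ± 0.18, 8.69e-07), and Sesn3 was lower (-0.93 ± 0.075, 6.50e-09), as Ddit4 was. The hypoxia count of higher genes was 2 on each FPKM setting.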
